A study of Danio rerio with 8 samples.

Results

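The zebrafish miR-200 family on this chip consists of dre-miR-200a, dre-miR-200b, dre-miR-200c, dre-miR-141, dre-miR-429 and dre-miR-429b, taken by exact probe name and without star forms. These 6 are among 248 zebrafish miRNA probes, and all 6 were among the 187 that could be tested. The members were measured in small RNAs isolated from total RNA of whole zebrafish embryos at 72 hpf (hours post fertilization). There were 4 arrays of embryos given MC-RR and 4 arrays of control embryos given saline. MC-RR is microcystin-RR, a cyclic peptide toxin of cyanobacteria, and per the study's methods it was microinjected into the yolk of early cleavage embryos. The submitters' design text calls the 4 samples of a group biological replicates and the groups paired, and the labels name neither a strain nor the number of embryos behind a sample. In whole embryos, fewer cells of a type and less of a miRNA per cell cannot be told apart. The question was whether MC-RR changed the expression levels of miRNAs during development.

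The miR-200 family is a hallmark of epithelial cells. In mammals its members repress the transcription factors ZEB1 and ZEB2, which in turn silence E-cadherin, so that high miR-200 is known for keeping cells epithelial. In zebrafish the family is known from the olfactory epithelium, where it is needed for the last steps of olfactory neuron differentiation, and from the ionocytes of the skin.

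The mature sequences that the probes were designed for, as listed in the scanner output, are shown because the family is divided by its seed (bases 2 to 8 from the 5′ end, in capitals), the part of a miRNA that chooses its targets.
dre-miR-200a: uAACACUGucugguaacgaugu
dre-miR-141: uAACACUGucugguaacgaugc
dre-miR-200b: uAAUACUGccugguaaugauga
dre-miR-200c: uAAUACUGccugguaaugaugc
dre-miR-429: uAAUACUGucugguaaugccgu
dre-miR-429b: uAAUACUGccugguaaugccau

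The seed AACACUG was held by 2 members, dre-miR-200a and dre-miR-141, and the seed AAUACUG by the other 4. The 2 seeds differ at 1 base, written C4U from dre-miR-200a to dre-miR-200b with positions counted from the 5′ end. Neither seed occurred in any other of the 347 probes with a listed sequence. Over their 22 bases, dre-miR-200a and dre-miR-141 differed by U22C alone and dre-miR-200b and dre-miR-200c by A22C alone, whereas dre-miR-429 and dre-miR-429b differed by U9C and G21A. The most distant of the 15 pairs, dre-miR-141 and dre-miR-429b, differed at 7 bases. Whether probes for targets 1 base apart also bind each other's target was not tested. In the RefSeq annotation (assembly GRCz12tu), where 6 of 6 members were found, dre-miR-200b, dre-miR-200a and dre-miR-429 were neighbours on 1 chromosome with 0 other genes inside the group. The same held for dre-miR-429b, dre-miR-141 and dre-miR-200c, so each cluster holds both seeds.

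Most members stood well above the background of the chip. Their raw intensity passed a limit set by the blank spots (95th percentile) on all 8 arrays, except for dre-miR-200a, which passed it on 7. The exception was control replicate 4, where dre-miR-200a read 492 against a limit of 512. The median of the blank spots there was 179, against 45.3 to 166 on the other arrays. On that array the limit was far higher than the 49.7 to 188 of the other 7, and dre-miR-429 and dre-miR-429b were only 1.19 and 1.18 times the limit. At the other end, dre-miR-200c reached 75.9 times the limit on MC-RR replicate 3. The 10 spots of a member on 1 array had a coefficient of variation of 7.08% to 18.1%. Over the arrays, 71 to 224 zebrafish miRNAs were above the limit, the fewest on control replicate 4, and the median raw intensity of the zebrafish probes was 106 to 384, the lowest on MC-RR replicate 2. Among 12 tissue-marker miRNAs, 8 were detected on all arrays, including the epidermal miRNAs dre-miR-203a and dre-miR-205. Of the blood miRNAs, dre-miR-451 was detected on 3 control and 4 MC-RR arrays, and dre-miR-144 on 0.

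No member was called changed by MC-RR. Levels are given as normalized log2 signal, in which 1 unit is a doubling. The 2 members with the AACACUG seed are described first. dre-miR-200a had 9.65, 10.03, 9.96 and 9.55 in control embryos (replicates 1 to 4, the order kept throughout) and 10.28, 10.12, 9.90 and 9.70 in embryos given MC-RR. The highest arrays were MC-RR replicates 1 and 2, the lowest were control replicates 4 and 1, and the groups overlapped. Its mean was 10.00 ± 0.25 with MC-RR and 9.80 ± 0.23 in controls (SD, n = 4), a log2 fold change of 0.21 (SE 0.18, limma adjusted p = 0.892), or 1.15-fold with a 95% interval of 0.859 to 1.55. This was the highest fold change of the family. With 1 array left out, its log2 fold change ran from 0.11 (without MC-RR replicate 1) to 0.30 (without MC-RR replicate 4). It was 0.12 without control replicate 4, where the probe was below the blank limit.

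dre-miR-141, which shares that seed, had 10.14, 10.86, 10.55 and 10.33 on the control arrays and 10.84, 10.62, 10.49 and 10.33 on the MC-RR arrays. The control values reached both lower and higher than all MC-RR values. The means were 10.57 ± 0.22 with MC-RR and 10.47 ± 0.31 in controls (SD, n = 4), and the fold change was 1.07 (95% interval 0.785 to 1.47, limma adjusted p = 0.892).

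Of the AAUACUG members, dre-miR-200b and dre-miR-200c varied least. dre-miR-200b had 10.82, 10.92, 10.94 and 10.97 in controls and 10.96, 11.26, 10.93 and 10.91 with MC-RR. All arrays but MC-RR replicate 2 lay between 10.82 and 10.97, and that array stood above them. The log2 fold change was 0.10 (SE 0.13), or 1.07-fold with a 95% interval of 0.866 to 1.33 (limma adjusted p = 0.892), and without MC-RR replicate 2 it was 0.022.

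dre-miR-200c had 11.01, 11.22, 11.18 and 11.24 in controls and 11.27, 11.23, 11.20 and 11.18 with MC-RR. Only control replicate 1 lay apart, below the other 7 arrays. The fold change was 1.04 with a 95% interval of 0.859 to 1.26 (log2 fold change 0.06, SE 0.12, limma adjusted p = 0.892), the narrowest interval in the family. Its SD within groups was 0.079, the smallest of all 187 tested miRNAs, and that of dre-miR-200b, 0.125, ranked 8 from the smallest. Under quantile normalization, median scaling and the deposited normalized table, dre-miR-200c ranked 8, 6 and 3 and dre-miR-200b ranked 22, 26 and 12, and with no normalization they ranked 72 and 54.

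dre-miR-429 had 10.09, 10.61, 10.56 and 9.85 in controls and 10.66, 10.27, 10.44 and 10.17 with MC-RR. Control replicate 4, with its high blank limit, was the lowest array. The fold change was 1.08 (95% interval 0.766 to 1.51, limma adjusted p = 0.892), and without control replicate 4 the log2 fold change turned from 0.11 to -0.037.

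dre-miR-429b had 8.64, 8.16, 9.12 and 9.80 in controls and 8.76, 9.12, 8.67 and 9.49 with MC-RR. Both arrays of replicate number 4 were the highest of their group, and the controls spanned 1.64 log2 units. The fold change was 1.06 with a 95% interval of 0.597 to 1.87 (log2 fold change 0.08, SE 0.36, limma adjusted p = 0.938). Its sign depended on single arrays. The log2 fold change was 0.37 without control replicate 4 but -0.18 without control replicate 2, -0.017 without control replicate 1 and -0.082 without MC-RR replicate 4.

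**Figure D1:**
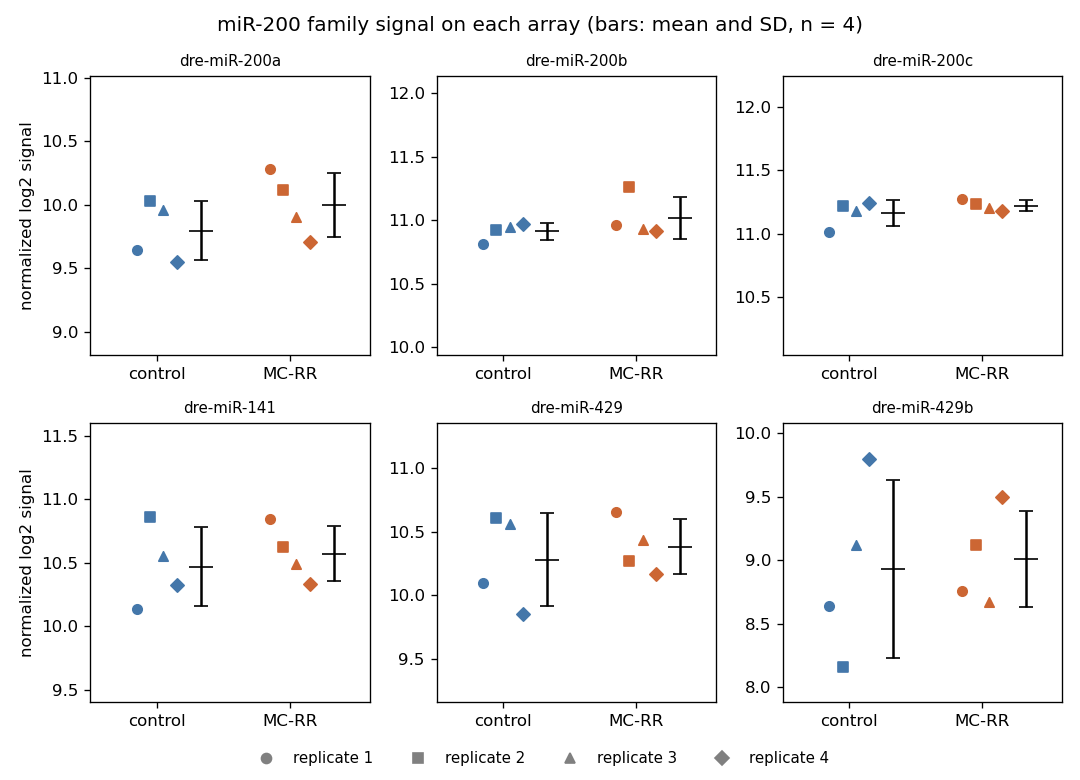
Normalized log2 signal (vertical axis, each panel spanning the same number of log2 units) of the 6 members on each array, with control in blue, MC-RR in orange, a marker shape for each replicate number and bars for the mean and SD of 4 arrays. The groups overlap for every member, dre-miR-200b and dre-miR-200c are tightly grouped apart from MC-RR replicate 2 of dre-miR-200b, and dre-miR-429b is the most scattered.

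By every rule of calling, 0 of 6 members were called. An unadjusted limma p under 0.05 was reached by 0 of 6 members against 8.56% of the 187 tested miRNAs (16), and an adjusted p under 0.05 by 0 of 6 against 0% (0 of 187). Under other processing at most 4 of all tested miRNAs had an adjusted p under 0.05, none of them a member. Groups that did not overlap were found for 0 of 6 members against 3.21% of tested miRNAs. The exact permutation test of 4 arrays against 4, two-sided, allows no p below 0.0286, and the members had 0.286 (dre-miR-200a), 0.4 (dre-miR-200c), 0.429 (dre-miR-200b), 0.6 (dre-miR-429), 0.629 (dre-miR-141) and 0.857 (dre-miR-429b). That permutation test shuffled all 8 arrays freely and took no account of the replicate number. With 6 members and such shares, a count of 0 does not set the family apart from the other miRNAs.

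The differences varied with the replicate number. Within replicate number 1, all 6 members were higher with MC-RR, by 0.63 (dre-miR-200a), 0.71 (dre-miR-141), 0.56 (dre-miR-429), 0.26 (dre-miR-200c), 0.15 (dre-miR-200b) and 0.12 (dre-miR-429b) log2 units. The mean difference of the 6 was 0.41 in number 1, 0.14 in number 2, -0.11 in number 3 and 0.01 in number 4. The median difference over all tested miRNAs was -0.07, -0.11, -0.03 and -0.0004 in the same order. The shift of the members was confined neither to a seed nor to a cluster but was largest in a single pair of arrays. In number 2 the members split, with dre-miR-429b at 0.96 and dre-miR-200b at 0.34, against -0.24 for dre-miR-141 and -0.33 for dre-miR-429. MC-RR replicate 2 is the array with the lowest median raw intensity, and the part of that in the split was not tested. In number 3, 5 of 6 members were lower with MC-RR, by at most 0.45 (dre-miR-429b), and dre-miR-200c differed by 0.03.

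**Figure D2:**
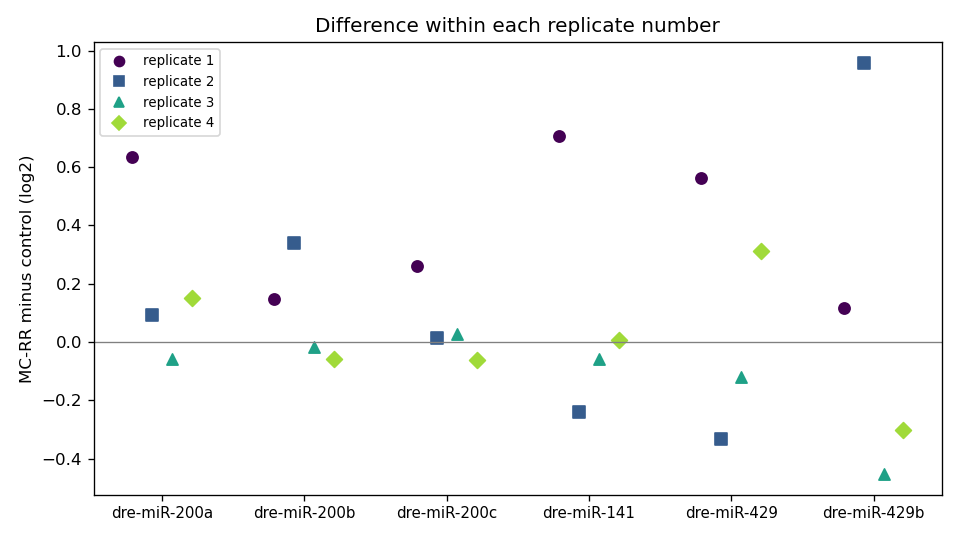
MC-RR minus control in normalized log2 units (vertical axis) for each of the 6 members within replicate numbers 1 to 4, each a colour and marker. All 6 points of replicate 1 lie above 0, from 0.12 to 0.71, and no member has all 4 points on the same side of 0.

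No member had the same sign in all 4 replicate numbers (0 of 6), against 33.7% of the 187 tested miRNAs. MC-RR was higher in 3 of 4 numbers for dre-miR-200a and dre-miR-200c and in 2 of 4 for the other 4 members. With the replicate number as a block, an unadjusted limma p under 0.05 was reached by 0 of 6 members, while the share among all tested miRNAs rose to 16% (30). The blocked adjusted p of limma ran from 0.536 for dre-miR-200a to 0.855 for dre-miR-429b, and the blocked 95% intervals of the fold were 0.889 to 1.49 for dre-miR-200a, 0.868 to 1.25 for dre-miR-200c and 0.661 to 1.69 for dre-miR-429b.

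As a group, the members had small positive fold changes. Their log2 fold changes ran from 0.06 to 0.21 with a median of 0.10, and 6 of 6 were above 0. Over all tested miRNAs the median was -0.06, and 87 of 187 were above 0 (46.5%). The 6 members share the same arrays and some varied together (Pearson r up to 0.88), so they do not count as 6 separate results. The scaling of the arrays moved the median of all tested miRNAs from -0.06 to 0.05 under quantile normalization and to 0.10 under median scaling. Relative to that median, the family median was 0.16 higher under cyclic loess, 0.14 under quantile normalization, 0.21 under median scaling and 0.10 in the deposited normalized table. All 6 members stayed above 0 under these 4, and with no normalization 5 did, since dre-miR-429b was then at -0.044. The family median was 0.027 without control replicate 1, the array on which dre-miR-141, dre-miR-200b and dre-miR-200c were lowest, and 4 of 6 members were then above 0, with dre-miR-141 at -0.0068 and dre-miR-429b at -0.017. With the replicate block without pair 1, 3 of 6 were above 0. The median was 0.15 for the 2 AACACUG members and 0.09 for the 4 AAUACUG members. It was 0.11 for the cluster of dre-miR-200b, dre-miR-200a and dre-miR-429 and 0.08 for the cluster of dre-miR-429b, dre-miR-141 and dre-miR-200c.

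Under cyclic loess, the size of the fold change, sign aside, and the spread of most members lay below the medians of all tested miRNAs. The median size of the log2 fold change, sign aside, was 0.10 in the family and 0.17 over all tested miRNAs, and 5 of 6 members were below the latter. The median SD within groups was 0.26 in the family and 0.34 over all tested miRNAs, again with 5 of 6 members below it. That count depended on the scaling, as 4 of 6 members were below the median SD under quantile normalization and under median scaling, 6 of 6 in the deposited normalized table and 3 of 6 with no normalization. Under cyclic loess the exceptions were dre-miR-200a for the size of the fold change and dre-miR-429b for the SD, which was 0.56.

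**Figure D3:**
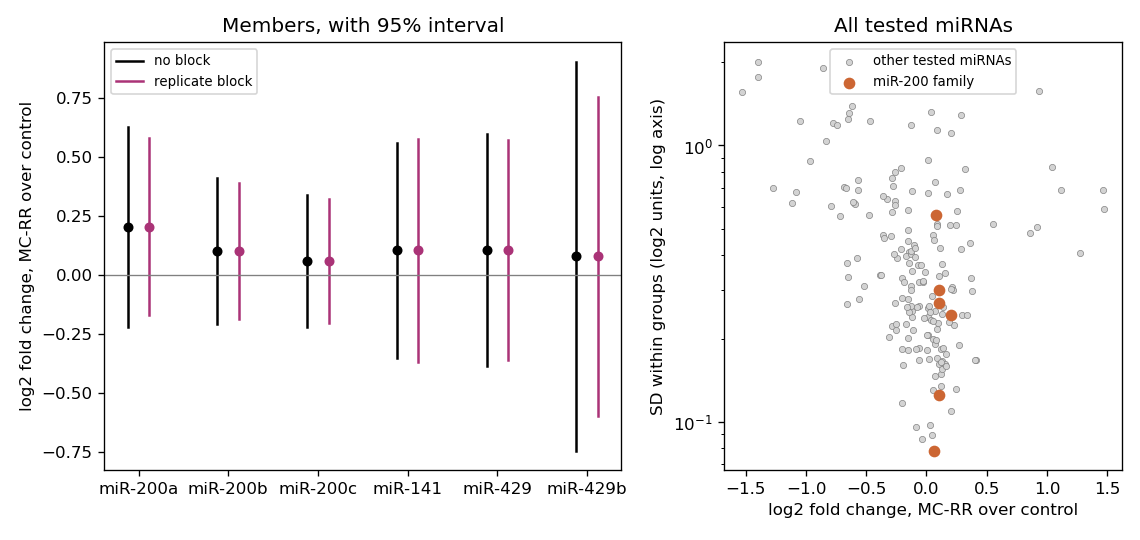
Left, the 6 members' log2 fold change (MC-RR over control) with 95% intervals, without (black) and with (purple) the replicate block, all crossing 0. Right, the fold change of each of the 187 tested miRNAs against its SD within groups (log axis), with the family in orange lying close to 0 and dre-miR-200c at the lowest SD, 0.079.

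The members did not vary together as 1 unit over the 8 arrays. These correlations are descriptions over arrays that share replicate numbers and normalization. The median Pearson r was 0.36 over the 15 family pairs, against 0.003 over all pairs of tested miRNAs. Of the 10 pairs without dre-miR-429b, 0 had a negative r, against 3 of the 5 pairs with it. The lowest of those 10 was 0.01, between dre-miR-200b and dre-miR-429, which share a seed and a cluster. dre-miR-200a, dre-miR-141 and dre-miR-429 were high and low on similar arrays, with Pearson r of 0.88 (dre-miR-200a and dre-miR-141), 0.85 (dre-miR-200a and dre-miR-429) and 0.82 (dre-miR-141 and dre-miR-429). The first pair shares a seed, dre-miR-429 has the other seed, and the 3 come from both clusters. dre-miR-200b and dre-miR-200c, 1 base apart, had r = 0.54, over a narrow range of values. The r was also 0.54 between dre-miR-200a and dre-miR-200c, and it was 0.72 between dre-miR-200c and dre-miR-141. By Spearman rho the pair 1 base apart was the highest of these, at 0.74 against 0.43 and 0.48. dre-miR-429b ran against dre-miR-200a, dre-miR-141 and dre-miR-429, with r of -0.49, -0.48 and -0.68. Spearman rho was weaker, at -0.33, -0.36 and -0.45. Control replicate 4, with its high blank limit, was the highest array of dre-miR-429b and the lowest of dre-miR-200a and dre-miR-429. Control replicate 2 was the lowest array of dre-miR-429b (8.16) and the highest of dre-miR-141 (10.86), with dre-miR-429 also high (10.61). The part of single arrays in these correlations was not tested.

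The difference between 2 members on the same array was also followed in log2 units. Its SD over 8 arrays was 0.11 for dre-miR-200b and dre-miR-200c and 0.12 for dre-miR-200a and dre-miR-141, the pairs 1 base apart. It was at most 0.31 in the 10 pairs without dre-miR-429b, and 0.51 to 0.74 in the 5 pairs with it. Over all 17391 pairs of tested miRNAs the median was 0.62, and 12 of the 15 family pairs were below it. The highest value, 0.74, belonged to dre-miR-429 and dre-miR-429b, which differ at only 2 bases. The SD of a difference also depends on the spread of each member, so it does not measure likeness alone. The SD within groups was 0.125 for dre-miR-200b, 0.079 for dre-miR-200c and 0.56 for dre-miR-429b. Whether the SD of the difference follows the number of differing bases was not tested.

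**Figure D4:**
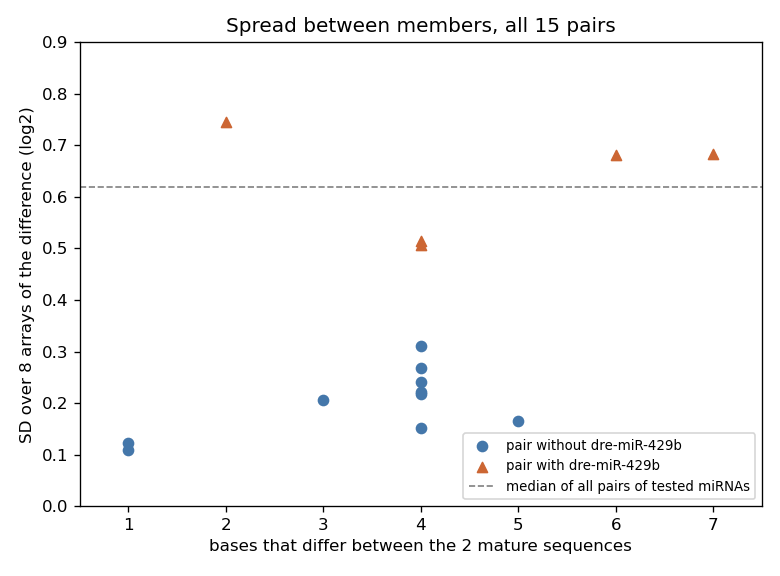
For each of the 15 pairs of members, the number of bases that differ (horizontal axis) and the SD over 8 arrays of the difference in normalized log2 signal (vertical axis), with pairs that include dre-miR-429b as orange triangles and the median of all pairs of tested miRNAs, 0.62, as a dashed line. Pairs 1 base apart lie at 0.11 and 0.12, and every pair with dre-miR-429b lies at 0.51 or above. The SD of a difference also depends on the spread of each member.

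Outside the family, the tested miRNAs whose signal over the 8 arrays was most like the mean of the 6 members were dre-miR-451 (Pearson r = 0.77, Spearman rho = 0.60), dre-miR-27a (r = 0.73, rho = 0.17) and dre-miR-22a (r = 0.71, rho = 0.38). The first is an erythroid miRNA. Without control replicate 1 and MC-RR replicate 1, the arrays farthest from the median of the family mean, r was 0.31, 0.76 and -0.23. Leaving out the extreme arrays of the family mean narrows its range, which can by itself lower r. What the likeness rested on was not tested.

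Other miRNAs of epithelia and sensory organs had values on both sides of 0. In a list of 7 (dre-miR-203a, dre-miR-203b, dre-miR-203b*, dre-miR-205, dre-miR-182, dre-miR-183 and dre-miR-96), all were tested, 3 were higher and 4 lower with MC-RR, and the median log2 fold change was -0.52. At an unadjusted limma p under 0.05, 1 was higher (dre-miR-182, 0.41, SE 0.15) and 2 were lower. The lower were dre-miR-183 (-0.52, SE 0.22) and dre-miR-96 (-0.56, SE 0.20). Their raw intensity was above the blank limit on 7 and 5 of 8 arrays, and that of dre-miR-182 on all 8. The share of all tested miRNAs at that p was 8.56%, both directions together, and 0 of 7 in the list had an adjusted p under 0.05. The log2 fold changes ran from -1.40 for dre-miR-203a (SE 1.22) to 0.41 for dre-miR-182, and dre-miR-203b was at 0.03. The SD within groups of dre-miR-203a, 2.01, was the largest of all tested miRNAs. By group, its SD was 2.81 with MC-RR and 0.41 in controls, and that of dre-miR-205 was 1.82 and 0.30. The difference between the family and this list was not tested.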

How the data were processed

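Per the study's methods, a service provider isolated small RNAs from total RNA by size. Those of 8 samples were hybridized, 1 Cy5 array per sample. The deposited scanner output gives each spot's mean pixel intensity on a linear scale, not background-subtracted. The deposited normalized table holds linear intensity values that the authors' provider background-subtracted and LOWESS-normalized, and it served as an alternative. The number of arrays limits the precision.

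With R 4.3.3 and limma 3.58.1, the normexp model (offset 50) was applied to all spots. The log2 values of a probe's 10 spots were averaged, and cyclic loess over the 248 zebrafish probes normalized the arrays. The offset compresses fold changes near the background. A miRNA was tested when its raw mean exceeded the 95th percentile of 206 blank spots on at least 4 of 8 arrays (187 miRNAs). Groups, taken from the labels, were compared by limma (lmFit, eBayes), two-sided, with Benjamini-Hochberg adjustment over all 187, and by exact permutation. The code was tested on simulated data. The methods name a two-tailed t-test without pairing, so the main comparison had no block. The deposited design speaks of paired embryos, and arrays of the same number deviated together from their group means (r = 0.58, 0.29, 0.53 and 0.78 for numbers 1 to 4). The numbers were therefore taken as pairs and were a block in an alternative. Arrays of different numbers were not compared in this way.

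All 6 members are named, with the 3 miRNAs most like their mean and a list of 7 epithelial and sensory miRNAs. Members and lists were chosen with earlier results of these data known. Alternatives covered normalization, background, offset, filter, spot summary, the deposited table, the methods' t-test, the block and each array left out. The block on the deposited table and the block without each pair were added after the data were seen. The genome build behind the probes is not given in the sources used here, so no coordinates are printed.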

Additional observations from a re-analysis of the deposited data

Results flagged for a closer look

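The level of dre-miR-200b on MC-RR replicate 2, 11.26 log2 units, stood apart from the other 3 MC-RR arrays, the nearest of which had 10.96. The gap was 0.850 of the range of the group, above the critical value of Dixon's test for 4 samples. Chance flags about 1 in 20 such groups, and 12 groups (6 members in 2 groups) were examined. That array also had the lowest median raw intensity of the 8, and the part of this in the value was not tested.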

How the results depend on the processing

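In 26 alternatives, 144 of 155 member values kept their direction, and 0 members reached an unadjusted or adjusted limma p under 0.05 or a p under 0.05 by the methods' t-test. dre-miR-200a and dre-miR-200b stayed above 0 in all of theirs (25 and 26; dre-miR-200a was not detected on all 8 arrays, so that stricter filter gave it no value). The other 11 were reversed. Where only the filter, the test or the block on all 8 arrays changed, the fold change stayed the same and could not reverse. The block on the deposited table likewise repeats the value of that table. The log2 fold change of dre-miR-429b was -0.044 with no normalization, -0.083 with subtraction of the blank median and -0.21 with the replicate block without pair 2. With the replicate block without pair 1, dre-miR-141 was -0.097, dre-miR-200c -0.0073 and dre-miR-429 -0.047. Leaving out 1 array gave -0.0068 (without control replicate 1) to 0.24 for dre-miR-141, -0.037 (without control replicate 4) to 0.22 for dre-miR-429 and -0.18 (without control replicate 2) to 0.37 for dre-miR-429b, which was also below 0 without control replicate 1 or MC-RR replicate 4. The family median was 0.31 under median scaling, and 0.027 to 0.16 with 1 array left out. Of all tested miRNAs, 16 had an unadjusted p under 0.05. That count was 3 with no normalization, 10 with subtraction of the blank median, 30 with the replicate block, 29 by the methods' paired t-test, 30 with the block on the deposited table, 26 and 42 with the block without pair 1 and pair 2, and 7 (without control replicate 3) to 18 with 1 array left out, with 10 without control replicate 2 and 10 without MC-RR replicate 1. An adjusted p under 0.05 was reached by 1 tested miRNA with offset 1, 1 on the deposited table, 1 with the block without pair 2 and 4 with the block on the deposited table, and by 0 otherwise. The block changed no call of a member. The causes were not tested. Signal over background limits dre-miR-200a, dre-miR-429b and dre-miR-429 on control replicate 4 (0.961, 1.18 and 1.19 times the blank limit).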
